A study of Mus musculus with 8 samples.

Results

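Interferon response genes are the genes that cells switch on after sensing foreign nucleic acid or after an interferon binds its receptor. They were followed here as a list of 52 genes, taken by symbol from the 55421 genes counted in cultured mouse spermatogonia, and chosen as interferon receptor subunits, Stat and Irf transcription factors, nucleic acid sensors and interferon stimulated genes. All 52 had counts in the table and all 52 passed the filter on low counts, with 38 to 21173 reads per gene and library. The study asked whether nutrient restriction together with retinoic acid (RA), the active form of vitamin A, brings spermatogonia into meiosis. Cultures were of C57BL/6XDBA/2 background, were started from testes of pups aged 6 days, and grew on irradiated mouse embryonic fibroblasts as feeder cells, so that each library can hold RNA of feeder cells. RNA-seq was done in 4 conditions with 2 libraries each. Vehicle cells (Veh) stayed in complete medium, and RA cells received 100 nM RA in complete medium. In the condition called NR (nutrient restriction), 90% of the medium was Earle's Balanced Salt Solution (EBSS) and 10% was complete medium. The fourth condition, NRRA, was the restricted medium with 100 nM RA. All treatments lasted 2 days. The paper describes replicates as independent, while the labels give replicate numbers only, so the p-values measure the spread between these libraries.

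Interferons are small secreted proteins. Type I interferons such as IFN-β bind a receptor made of IFNAR1 and IFNAR2, whose kinases phosphorylate STAT proteins such as STAT2, and these join IRF9 to bind the interferon stimulated response element in promoters. Interferon gamma acts through another receptor on gamma activated sites, and induces IRF1 and families of GTPases such as the guanylate binding proteins (GBPs). Many of the induced genes restrict viruses and transposons, or feed back on the pathway.

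Nutrient restriction raised nearly the whole list, without RA and with it. In NR against Veh, 49 of the 52 genes rose at an adjusted p under 0.05, against 21.7% of the 20477 genes tested, and 21 rose at least 2-fold, against 5.33%, while 0 fell at least 2-fold (2.96%). The median log2 fold change of the list was 0.83, against 0.01 over all tested genes. *Ifi27* was the gene that fell (22.2% of tested genes fell), and *Ifnar1* and *Trim25* did not pass the test. In NRRA against RA, a comparison that shares no library with the first, 50 genes rose (20.9% of tested genes), 25 of them at least 2-fold (4.61%), 0 fell at least 2-fold (3.68%), and the median was 0.96 against 0.02. *Ifi27* fell again (19.4% of tested genes fell), and *Ifnar1* did not pass. The same 49 genes rose in both comparisons, against 13.1% of tested genes, and 20 of them rose at least 2-fold in both (2.64%). In the 8 libraries, both NR libraries stood above both Veh libraries for 49 genes (34.8% of tested genes), and both NRRA libraries above both RA libraries for 50 genes (36.6%). Both lay below for 2 genes, *Ifi27* and *Ifnar1*, in each comparison (34.2% and 33.3% of tested genes). Leaving out each library in turn, 46 of the 49 and 48 of the 50 passed every time. Tests were edgeR's quasi-likelihood test with Benjamini-Hochberg adjustment over all tested genes, and levels are in CPM, the reads of a gene scaled to its library's total after TMM normalization, with the standard error (SE) of each log2 fold change.

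**Figure D1:**
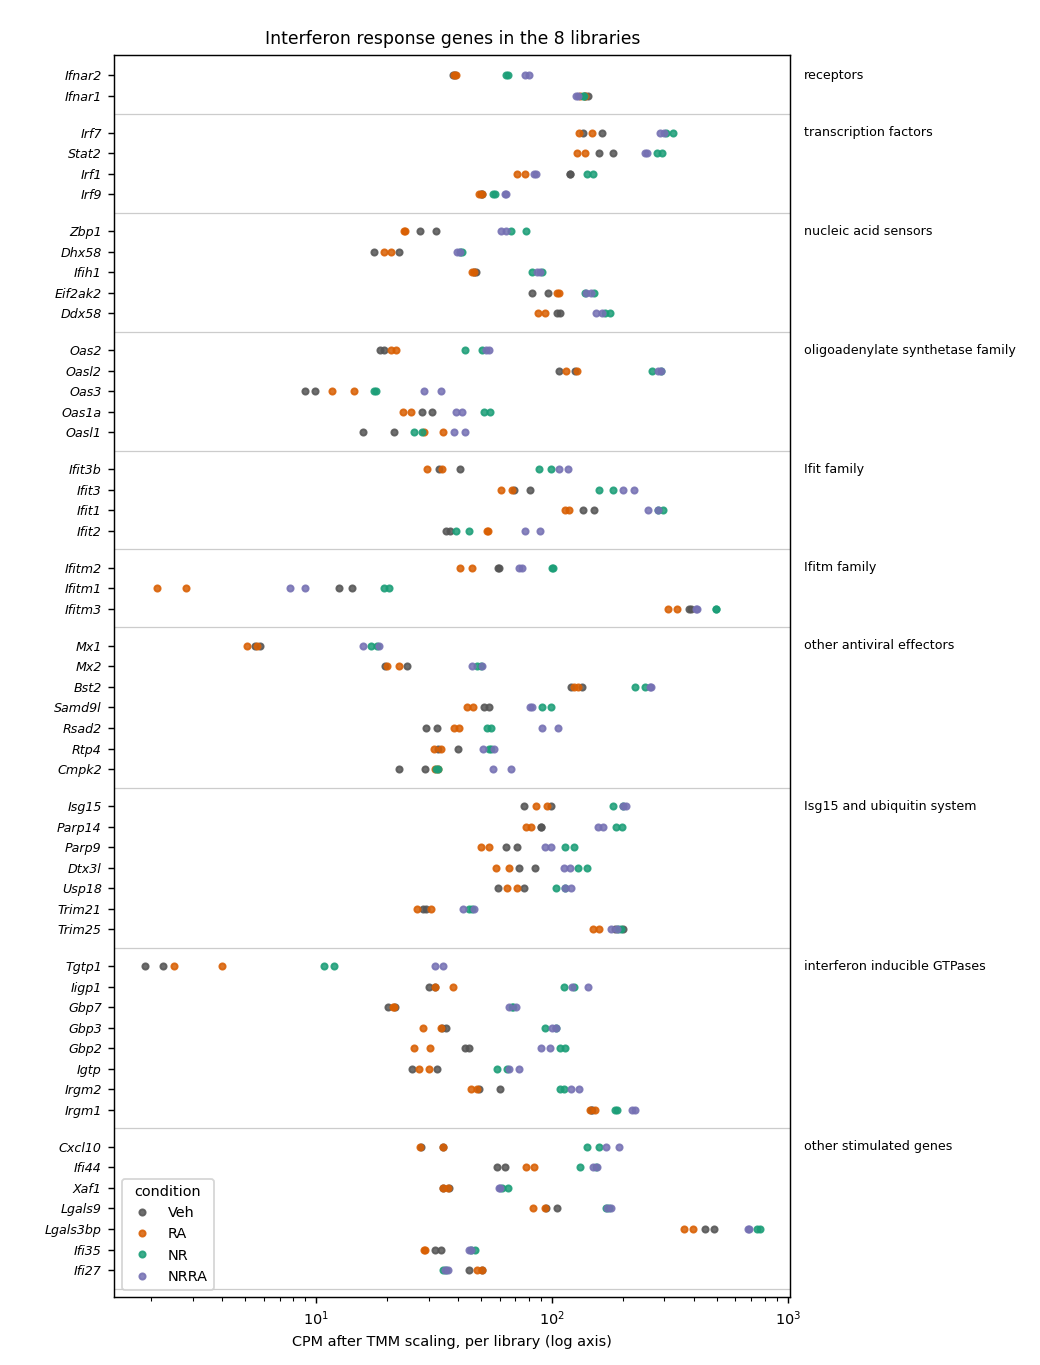
Level of each of the 52 genes in the 8 libraries, in CPM on a log axis. Each point is a library, colours are conditions, and genes are grouped by role and ordered within a role by their log2 fold change in NR against Veh. For 49 genes both NR points lie to the right of both Veh points.

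RNA of feeder cells moved in the same direction, which bears on every result for nutrient restriction below. The 17 fibroblast markers summed to 13224 and 13457 CPM in Veh, 26183 and 27516 in NR, 10937 and 10136 in RA, and 23373 and 22815 in NRRA. In NR against Veh, their median log2 fold change of 0.67 lay below that of the interferon response genes, 0.83. Of the 17 markers 14 rose and 2 fell, with *Postn*, a matrix protein gene, highest at 1.68. In NRRA against RA 13 rose, 9 of them at least 2-fold, and 4 fell, and their median of 1.06 lay above that of the interferon response genes, 0.96. None of the 17 was at 0 in all libraries. The interferon response genes summed to 4104 and 3790 CPM in Veh, 6989 and 6609 in NR, 3698 and 3451 in RA, and 6570 and 6883 in NRRA. Their sum was therefore 1.72 times as high in NR as in Veh, and the sum of fibroblast markers 2.01 times. In NRRA against RA the corresponding ratios were 1.88 and 2.19. The sum of the germ cell markers was higher too, with a ratio of 1.26 in NR against Veh and 1.17 in NRRA against RA. The ratio of means was above that of the fibroblast sum for 21 of the 52 genes in NR against Veh and for 20 in NRRA against RA. A log2 fold change above that of the highest fibroblast marker was measured for *Gbp7*, *Iigp1*, *Tgtp1* and *Cxcl10* in NR against Veh. In NRRA against RA, where *Col3a1* was the highest marker at 1.76, this held for *Ifit3b*, *Ifitm1*, *Iigp1*, *Tgtp1* and *Cxcl10*. The part of feeder RNA in the rise of the interferon response genes was not tested. In bulk RNA, fewer cells of a type and less RNA per cell cannot be told apart. The 11 markers of macrophages and other leukocytes summed to 321 ± 2.71 CPM in Veh (SD, n = 2), 275 ± 15.5 in RA, 380 ± 3.98 in NR and 365 ± 11.9 in NRRA. In NR against Veh 5 of these 11 rose and none fell, and in NRRA against RA 8 rose and none fell. Their part in the result was not tested either.

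**Figure D2:**
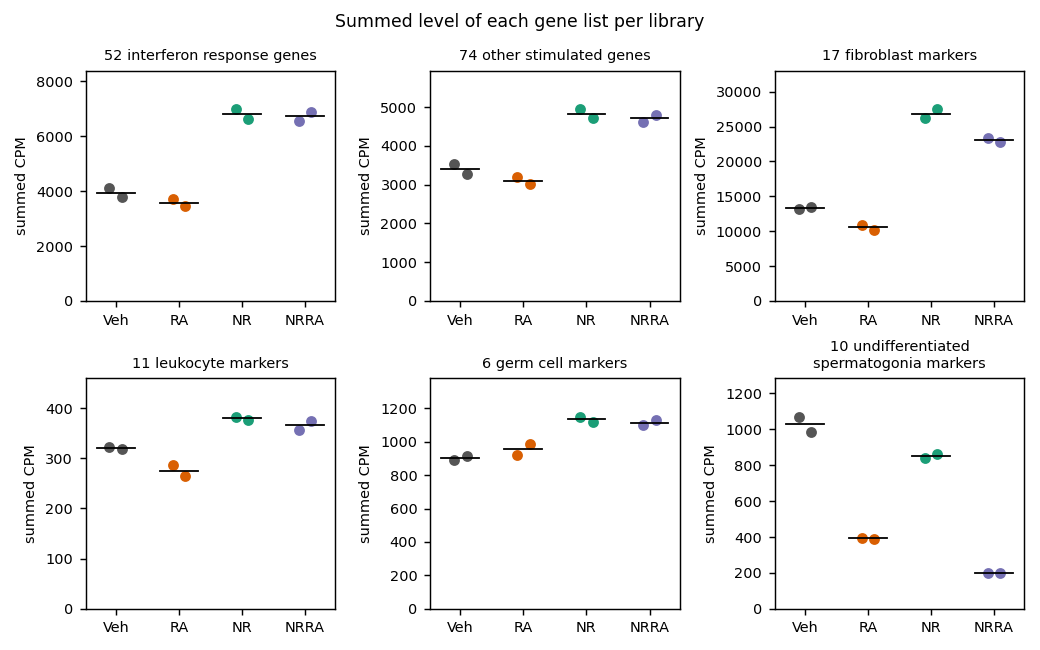
Summed CPM of 6 gene lists in each library, with the axis starting at 0. Points are libraries and bars are the means of 2. Interferon response genes, other stimulated genes and the fibroblast, leukocyte and germ cell markers were each higher in NR and NRRA than in Veh and RA. The undifferentiated spermatogonia markers were lowest in NRRA.

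Total counts were 19261333 to 30023585 per library, so that 1 CPM stands for 19.2 to 31.1 reads. Reads of the 52 genes made up 0.357% to 0.393% of each Veh and RA library, and 0.646% to 0.714% of each NR and NRRA library. Replicates differed by more than sampling noise in each condition, and most in Veh, with a chi-square per gene of 3.93 against 1.58 to 2.12 in the other conditions. The labelled cell type was checked by its markers. The 6 germ cell markers summed to 902 CPM in Veh and 953 to 1134 in the other conditions, against 15.3 CPM for 6 endothelial, 38.8 for 7 Sertoli and 8.37 for 6 Leydig cell markers in Veh. Fibroblast markers, with a mean sum of 13341 CPM in Veh, stood far above the germ cell sum, and leukocyte markers had 321. Sums of different lists do not give the share of each cell type. The 10 markers of undifferentiated spermatogonia summed to 1028 CPM in Veh, 852 in NR, 393 in RA and 198 in NRRA. The 6 markers of differentiating spermatogonia summed to 175, 188, 1042 and 1501 CPM in the same order. They did not move as 1 group. In NR against Veh 4 of them rose, 3 at least 2-fold, and 1 fell, with a median log2 fold change of 0.87 and a highest value of 3.44. In RA against Veh 4 of them rose and 0 fell, with a median log2 fold change of 0.77 and a highest value of 8.92. In NRRA against Veh 5 rose and 1 fell, with values from −1.38 to 9.47, and in NRRA against NR 4 rose and 2 fell. Levels of germ cell markers thus also differed between the conditions compared below. A change in the mix of germ cells and regulation within cells cannot be told apart here.

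Per kilobase of exon, the list spanned a wide range of levels in Veh. *Ifitm3*, which encodes a membrane protein that blocks virus entry, stood highest with 566 CPM per kb, followed by *Lgals3bp* with 163, *Bst2* with 141 and *Isg15* with 116. *Mx1* with 1.49, *Oas3* with 1.33 and *Tgtp1* with 0.643 CPM per kb stood lowest. In NRRA *Ifitm3* was still highest at 603 CPM per kb, *Bst2* had reached 290 and *Isg15* 269, and *Tgtp1* had reached 10.4. The mean level was highest in NR for 25 genes, in NRRA for another 25, in Veh for *Ifnar1* and in RA for *Ifi27*.

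Promoters of the 52 genes were compared with those of all genes in RefSeq, on GRCm38.p6, the genome build of the gene counts. The promoter table held 41 of the 52, as windows of 250 bases before to 50 after each annotated start. The interferon stimulated response element was searched on both strands as GAAA, any 2 bases and GAAA, which on the other strand reads TTTC, any 2 bases and TTTC. It was present for 24 of the 41 genes (58.5%), against 1079 of all 27025 genes in the table (3.99%), or 3.44% of all promoter windows. Among the 14 of these genes that rose at least 2-fold in NR against Veh, 11 had it, and among the other 27, 13 had it. The list was chosen as interferon stimulated genes, so this share describes the choice and is not a test. A gamma activated site, searched as TTCNNNGAA, which reads the same on both strands, was present for 13 of the 41 (31.7%) against 9.55% of all genes. Neither receptor gene, nor *Irf1*, *Irf7*, *Irf9* or *Ifitm1*, had the first motif in this window. The following stretches are shown because they carry the motif upstream of the start in genes that rose at least 2-fold both in NR against Veh and in NRRA against RA. Each is written 5′ to 3′ on the strand of its gene, with the motif in capitals and 12 bases on each side.
*Isg15* (chr4:156200863-156200908, minus strand): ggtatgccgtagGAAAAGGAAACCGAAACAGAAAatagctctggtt
*Ifit1* (chr19:34640773-34640825, plus strand): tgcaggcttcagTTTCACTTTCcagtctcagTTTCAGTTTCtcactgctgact
*Ifit3* (chr19:34583361-34583428, plus strand): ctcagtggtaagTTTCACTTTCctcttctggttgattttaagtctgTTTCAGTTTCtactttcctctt
*Ifit3b* (chr19:34607757-34607824, plus strand): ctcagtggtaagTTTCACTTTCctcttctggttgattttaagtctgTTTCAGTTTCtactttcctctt
*Gbp2* (chr3:142620592-142620625, plus strand): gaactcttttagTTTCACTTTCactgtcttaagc
*Gbp3* (chr3:142559987-142560026, plus strand): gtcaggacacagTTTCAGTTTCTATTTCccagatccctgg
*Gbp7* (chr3:142530271-142530304, plus strand): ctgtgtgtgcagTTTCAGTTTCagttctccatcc
*Cxcl10* (chr5:92349081-92349114, minus strand): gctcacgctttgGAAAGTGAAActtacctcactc
*Igtp* (chr11:58199510-58199543, plus strand): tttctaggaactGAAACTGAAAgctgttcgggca
*Irgm2* (chr11:58214901-58214934, plus strand): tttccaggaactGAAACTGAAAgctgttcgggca
*Tgtp1* (chr11:48992302-48992335, minus strand): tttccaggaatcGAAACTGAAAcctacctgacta
The stretches of *Ifit3* and *Ifit3b* are letter for letter the same, and those of *Igtp* and *Irgm2* share the motif and the bases after it. The motif occurred 3 times in overlapping copies in *Isg15*, and 2 overlapping copies make up the longer run of capitals in *Gbp3*. *Irf1* is shown for its gamma activated site.
*Irf1* (chr11:53769912-53769944, plus strand): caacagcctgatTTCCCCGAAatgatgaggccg
A match is a description of the letters, and binding of any factor was not measured here.

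**Figure D3:**
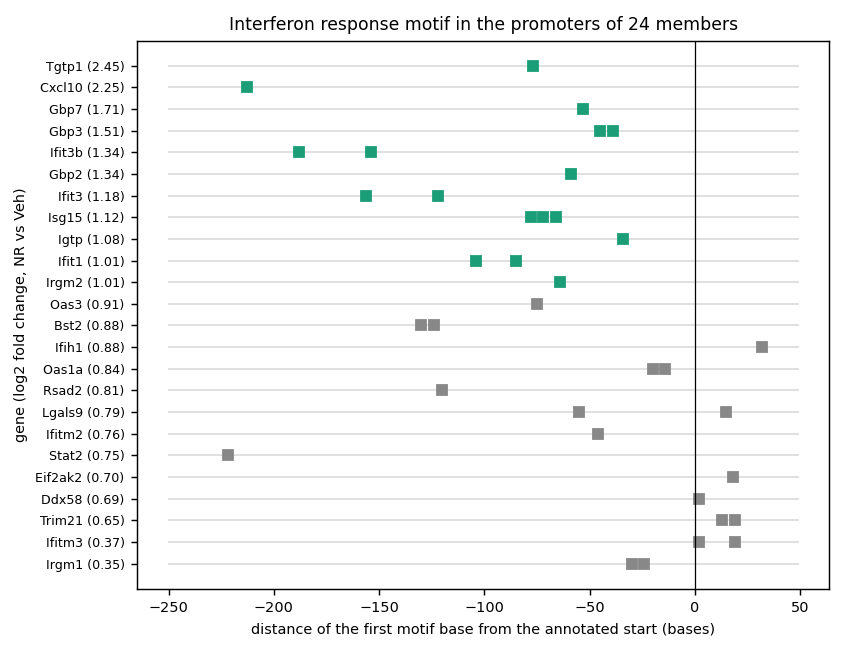
Position of each match to the interferon stimulated response element in the promoters of the 24 genes that have it, as the distance of its first base from the RefSeq start, with genes ordered by their log2 fold change in NR against Veh. Green squares mark the 11 genes that rose at least 2-fold, grey squares the other 13. All 11 green genes have a match before the start.

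The receptor subunits behaved differently from each other. *Ifnar1* (chromosome 16, 91485238 to 91507441, plus strand) encodes the subunit that carries the kinase TYK2. Its level was 142 and 138 CPM in Veh, 135 and 136 in NR, 132 and 138 in RA, and 129 and 126 in NRRA. All 8 libraries lay close together, and the log2 fold change was −0.04 ± 0.05 (SE) in NR against Veh (edgeR adjusted p = 0.47) and −0.08 ± 0.05 in NRRA against RA (adjusted p = 0.16). With an offset for GC content and length the latter was −0.12 and passed (adjusted p = 0.0062). Without the first or without the second Veh library it was −0.10, so its side of the threshold depended on the fit. *Ifnar2* (chromosome 16, 91372783 to 91405589, plus strand) encodes the subunit that holds STAT2. Its level was 38.0 and 38.9 CPM in Veh, 63.9 and 65.4 in NR, 39.3 and 38.5 in RA, and 79.6 and 77.0 in NRRA. *Ifnar2* therefore rose with restriction alone, by a log2 fold change of 0.75 ± 0.06 (adjusted p = 4.4e-11), and with restriction under RA, by 1.01 ± 0.06 (adjusted p = 2.2e-14). RA in complete medium left it at 0.02 ± 0.06 (adjusted p = 0.87), while RA in restricted medium raised it by 0.27 ± 0.05 (adjusted p = 9.9e-05). The difference between these effects of RA was 0.26 ± 0.08 (adjusted p = 0.032), and it passed the threshold in none of the 8 fits that left out a library, with adjusted p from 0.053 to 0.23.

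All 4 transcription factor genes rose with restriction in both comparisons (13.1% of tested genes), by very different amounts. *Irf7*, which drives the late wave of interferon genes, had 163 and 135 CPM in Veh, 325 and 304 in NR, 147 and 130 in RA, and 286 and 299 in NRRA. Its log2 fold change was 1.07 ± 0.06 in NR against Veh (adjusted p = 1.7e-13) and 1.08 ± 0.06 in NRRA against RA (adjusted p = 9.5e-14). The gene thus doubled with restriction, both without and with RA. RA did not change it past the threshold in complete medium (−0.11 ± 0.07, adjusted p = 0.18) or in restricted medium (−0.10 ± 0.06, adjusted p = 0.17). Without the second Veh library its value in RA against Veh was −0.23 (adjusted p = 0.00061), and without the first it was 0.052 (adjusted p = 0.51). *Stat2*, a partner of IRF9, had 181 and 158 CPM in Veh, 294 and 279 in NR, 138 and 128 in RA, and 247 and 254 in NRRA. It rose by 0.75 ± 0.05 in NR against Veh (adjusted p = 5.9e-12) and by 0.92 ± 0.05 in NRRA against RA (adjusted p = 8.6e-14), and RA lowered it in complete medium, where its log2 fold change was −0.36 ± 0.05 (adjusted p = 7.2e-06). *Irf9*, the DNA binding part of that complex, moved little. Its level was 49.8 and 50.7 CPM in Veh, 56.1 and 57.3 in NR, 50.6 and 49.03 in RA, and 63.4 and 63.7 in NRRA. In NR against Veh the rise was 0.18 ± 0.06 (adjusted p = 0.013). This call did not pass with DESeq2 (0.17, DESeq2 adjusted p = 0.054) or without the second NR library (0.18). In NRRA against RA the rise was 0.35 ± 0.05 (adjusted p = 5.7e-06). Neither rise passed the test against a fold of 1.2.

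*Irf1*, a factor induced by interferon gamma that acts on GBP and chemokine genes, had the largest log2 fold change with RA of the 4 factors. It had 119 and 119 CPM in Veh, 150 and 141 in NR, 76.7 and 70.8 in RA, and 85.4 and 84.3 in NRRA. Both RA conditions lay below both others with no overlap. Its log2 fold change with RA was −0.69 ± 0.05 in complete medium (adjusted p = 4.6e-11) and −0.77 ± 0.05 in restricted medium (adjusted p = 1.3e-12). Restriction raised it by 0.29 ± 0.05 without RA (adjusted p = 3.8e-05) and by 0.21 ± 0.05 with RA (adjusted p = 0.0024, and 0.096 without the second RA library). The interaction, which is the effect of RA in restricted medium minus that in complete medium, was −0.08 ± 0.07 for *Irf1* (adjusted p = 0.53) and did not pass for any of the 4 factors.

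The 5 sensors of foreign nucleic acid all rose with restriction, both without and with RA (13.1% of tested genes rose in both comparisons). *Zbp1*, a sensor of left-handed nucleic acid that can start cell death, rose most, from 32.2 and 27.6 CPM in Veh to 77.4 and 67.2 in NR (log2 fold change 1.27 ± 0.07), and from 23.6 and 23.8 in RA to 63.7 and 60.8 in NRRA (1.39 ± 0.07). *Dhx58*, which encodes the RNA sensor LGP2, rose at least 2-fold in both comparisons, with 1.04 ± 0.08 and 1.01 ± 0.08. The RNA sensors *Ifih1* (MDA5) and *Ddx58* (RIG-I) rose by 0.88 ± 0.06 and 0.69 ± 0.05 in NR against Veh. *Eif2ak2*, which encodes the kinase PKR that halts translation when it binds double-stranded RNA, had 82.1 and 95.8 CPM in Veh, 151 and 138 in NR, 105 and 107 in RA, and 139 and 146 in NRRA. RA raised it in complete medium, by 0.25 ± 0.06 (adjusted p = 0.0016), and not past the threshold in restricted medium (−0.02 ± 0.06). The rise in complete medium did not pass with an offset for GC content and length.

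The oligoadenylate synthetase family makes the second messenger that activates RNase L, and *Oasl1* and *Oasl2* are its oligoadenylate synthetase-like members. All 5 genes rose in both comparisons (13.1% of tested genes). *Oasl2* rose from 125 and 107 CPM in Veh to 289 and 265 in NR, and *Oas2* from 19.4 and 18.7 to 50.7 and 42.8. Their log2 fold changes were 1.25 ± 0.06 and 1.29 ± 0.08 in NR against Veh, and 1.24 ± 0.06 and 1.32 ± 0.07 in NRRA against RA. *Oas1a* rose by 0.84 ± 0.07 and 0.74 ± 0.07, but 40.6% of the windows cut from its transcripts are also found in *Oas1g*, so that reads of the pair can have been shared. *Oas3* and *Oasl1* are described with RA below.

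The *Ifit* genes encode proteins that hold foreign RNA away from the ribosome. *Ifit1* had 151 and 135 CPM in Veh, 295 and 282 in NR, 118 and 113 in RA, and 255 and 281 in NRRA, a log2 fold change of 1.01 ± 0.05 in NR against Veh and 1.22 ± 0.05 in NRRA against RA. *Ifit3b* had 40.7 and 33.2 CPM in Veh, 99.1 and 88.5 in NR, 34.2 and 29.5 in RA, and 108 and 117 in NRRA, a log2 fold change of 1.34 ± 0.08 in NR against Veh (adjusted p = 1.5e-13) and 1.83 ± 0.08 in NRRA against RA (adjusted p = 8.3e-17). *Ifit3* followed with 1.18 ± 0.07 and 1.73 ± 0.07, and 31.3% of its transcript windows are shared with *Ifit3b*. *Ifit2* stood apart from its neighbours on chromosome 19. It had 37.0 and 35.4 CPM in Veh and 44.6 and 39.0 in NR, a log2 fold change of 0.20 ± 0.08 (adjusted p = 0.035) that did not pass with DESeq2 or without the second Veh, the first RA or the first NR library.

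The *Ifitm* genes, whose proteins block the fusion of virus and cell, rose by less than 2-fold in NR against Veh. *Ifitm3* rose from 387 and 380 CPM in Veh to 495 and 496 in NR, and *Ifitm2* from 59.2 and 59.5 to 101.4 and 99.8. The exons of *Ifitm2* overlap those of *Gm45717* by 40.9% on the same strand. *Ifitm1*, a gene of early germ cells, is described with RA below.

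Among the other antiviral effectors, all 7 genes rose in both comparisons (13.1% of tested genes). *Mx1*, a dynamin-like GTPase named for resistance to myxoviruses, had 5.50 and 5.78 CPM in Veh, 17.01 and 18.1 in NR, 5.10 and 5.62 in RA, and 15.8 and 18.4 in NRRA. The NR and NRRA libraries lay about 3-fold above the others, with log2 fold changes of 1.64 ± 0.12 (adjusted p = 7.7e-12) and 1.66 ± 0.11 (adjusted p = 1.4e-12). *Mx2* rose by 1.16 ± 0.08 and 1.19 ± 0.08. *Bst2*, which encodes the tether that retains budding viruses, rose by 0.88 ± 0.05 and 1.06 ± 0.05, and *Samd9l* by 0.84 ± 0.06 and 0.85 ± 0.06. *Rtp4* rose by 0.58 ± 0.08 and 0.73 ± 0.07, with 13.9% of its exon bases overlapping *Gm45338*.

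The next group holds *Isg15*, a ubiquitin-like modifier, and the genes of its removal and of related ligases and ADP-ribosyltransferases. Of these 7 genes 6 rose in NR against Veh (21.7% of tested genes) and 7 in NRRA against RA (20.9%). *Isg15* itself had 98.8 and 76.3 CPM in Veh, 200 and 182 in NR, 94.9 and 85.5 in RA, and 199 and 207 in NRRA, a log2 fold change of 1.12 ± 0.07 and 1.18 ± 0.07. *Usp18*, which removes ISG15 and dampens IFNAR2 signalling, rose by 0.68 ± 0.08 and 0.79 ± 0.07, and the ubiquitin ligase gene *Trim21* by 0.65 ± 0.07 and 0.62 ± 0.07. *Parp14*, *Parp9* and *Dtx3l*, neighbours on chromosome 16, rose by 1.10 ± 0.05, 0.82 ± 0.06 and 0.78 ± 0.07 in NR against Veh, and *Parp9* and *Dtx3l* overlap by 9.4% and 8.0% of their exon bases on opposite strands. *Trim25*, the ubiquitin ligase that acts on RIG-I, had 200 and 185 CPM in Veh, 191 and 197 in NR, 158 and 149 in RA, and 177 and 189 in NRRA. RA in complete medium lowered *Trim25* (log2 fold change −0.32 ± 0.05, adjusted p = 6.6e-06), and its rise in NRRA against RA was 0.26 ± 0.05 (adjusted p = 0.00012).

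The interferon inducible GTPases had the highest median of the groups, 1.42 in NR against Veh and 1.71 in NRRA against RA. All 8 rose in both comparisons (13.1% of tested genes), and 7 of them at least 2-fold in both (2.64%). The exception was *Irgm1*, which rose by 0.35 ± 0.04 and 0.58 ± 0.04. These proteins act on the membranes around pathogens inside the cell. *Iigp1* had 30.1 and 32.0 CPM in Veh, 123 and 112 in NR, 37.9 and 31.9 in RA, and 122 and 143 in NRRA, a log2 fold change of 1.92 ± 0.08 (adjusted p = 9.2e-17) and 1.93 ± 0.08 (adjusted p = 1.8e-17). *Gbp7* had 21.5 and 20.1 CPM in Veh, 68.3 and 67.8 in NR, 21.1 and 21.4 in RA, and 66.1 and 70.5 in NRRA, a log2 fold change of 1.71 ± 0.07 (adjusted p = 2.0e-17) and 1.68 ± 0.06 (adjusted p = 6.8e-18). The 4 restricted libraries of *Gbp7* thus lay within a few CPM of each other, more than 3-fold above the 4 libraries of complete medium. *Gbp7* shares 11.3% of its exon bases with *Gm43802*. *Gbp3* rose by 1.51 ± 0.07 and 1.73 ± 0.07, *Gbp2* by 1.34 ± 0.06 and 1.75 ± 0.07, and *Igtp* by 1.08 ± 0.08 and 1.28 ± 0.08.

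*Tgtp1*, a GTPase first found in T cells, showed the largest fold of the list in every comparison for restriction. It had 1.88 and 2.24 CPM in Veh, 11.9 and 10.7 in NR, 3.98 and 2.50 in RA, and 31.9 and 34.6 in NRRA. The 4 conditions did not overlap, and the fold was 5.48 in NR against Veh (log2 2.45 ± 0.17, adjusted p = 6.3e-12) and 10.7 in NRRA against RA (log2 3.42 ± 0.12, adjusted p = 3.7e-18). Of its transcript windows 79.8% are shared with *Tgtp2*, so these values cannot be assigned to *Tgtp1* alone. *Tgtp2* had 3.81 and 3.60 CPM in Veh, 18.5 and 17.1 in NR, 4.28 and 4.92 in RA, and 39.6 and 43.1 in NRRA.

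Of the 7 remaining stimulated genes 6 rose in both comparisons (13.1% of tested genes). *Cxcl10*, a chemokine that draws T cells, had 34.5 and 27.9 CPM in Veh, 158 and 140 in NR, 34.4 and 27.5 in RA, and 170 and 192 in NRRA. Its fold was 4.77 in NR against Veh (log2 2.25 ± 0.09, adjusted p = 2.0e-17) and 5.93 in NRRA against RA (log2 2.57 ± 0.08, adjusted p = 4.5e-19). *Ifi44* rose by 1.23 ± 0.06 and 0.92 ± 0.06. The galectin gene *Lgals9* rose by 0.79 ± 0.06 and 0.99 ± 0.06, *Lgals3bp*, whose product binds galectins, by 0.69 ± 0.04 and 0.85 ± 0.04, *Xaf1* by 0.83 ± 0.06 and 0.77 ± 0.06, and *Ifi35*, with 16.8% of its exon bases overlapping *Gm11626* on the opposite strand, by 0.49 ± 0.06 and 0.64 ± 0.06. *Ifi27*, whose product sits in mitochondria or the nuclear envelope, went the other way. It had 44.4 and 50.6 CPM in Veh, 35.6 and 34.5 in NR, 50.4 and 48.2 in RA, and 35.2 and 36.2 in NRRA. The 4 restricted libraries lay below the other 4, and the log2 fold change was −0.44 ± 0.07 (adjusted p = 6.2e-06) and −0.46 ± 0.06 (adjusted p = 1.2e-06).

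**Figure D4:**
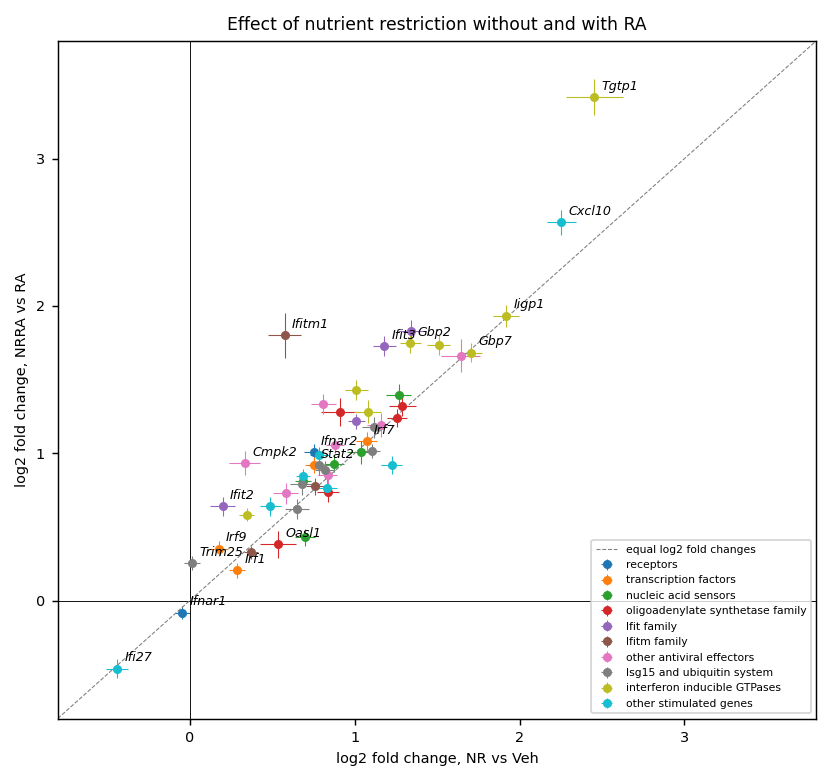
Log2 fold change of each gene with nutrient restriction without RA (NR against Veh, horizontal) and with RA (NRRA against RA, vertical), which share no library. Error bars are SE, colours are roles, and the dashed line marks equal values. *Tgtp1* and *Cxcl10* lie farthest out, *Ifitm1*, *Cmpk2* and *Ifit2* above the line, and *Ifi27* below 0 on both axes.

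RA in complete medium moved the list little and in both directions. In RA against Veh, 8 genes rose and 21 fell, against 19.8% and 23.4% of tested genes, and the median was −0.06 against −0.02 over all tested genes. At least 2-fold, 0 genes rose (4.74% of tested genes) and only *Ifitm1* fell (2.75%). Without the first Veh library 1 gene rose at least 2-fold. In NRRA against NR, which shares no library with RA against Veh, 16 genes rose and 14 fell (21.3% and 22.1% of tested genes), with *Tgtp1* as the gene that rose at least 2-fold (4.56%) and *Ifitm1* as the gene that fell at least 2-fold (4.14%). In complete medium the 21 genes that fell were a larger share of the list than of all tested genes and the 8 that rose a smaller one, and 13 of the 21 and 5 of the 8 passed in every fit that left out a library. Both RA libraries lay above both Veh libraries for 9 genes (32.2% of tested genes) and below for 23 (35.9%), and both NRRA libraries above both NR libraries for 17 (36.8%) and below for 19 (35.7%). The 16 became 9 without the second NR or the second NRRA library and 8 with DESeq2, and the 14 became 9 without the first NRRA library. Side by side, 6 genes rose with RA in both media (12.6% of tested genes), 14 fell in both (15.3%), and *Ifit3*, *Ifit3b* and *Irgm2* fell in complete medium and rose in restricted medium (0.669%). The fall of these 3 genes did not pass in every fit that left out a library, nor did the rise of *Ifit3b* and *Irgm2*. The fibroblast marker sum was 0.790 times as high in RA as in Veh and 0.860 times as high in NRRA as in NR. Of the 17 markers 3 rose and 10 fell in RA against Veh, and 2 rose and 12 fell in NRRA against NR. *Fap* was highest, with log2 fold changes of 3.01 and 3.20. The part of these markers in the changes of the list with RA was not tested.

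The 6 genes that rose with RA in both media were *Ifit2*, *Cmpk2*, *Rsad2*, *Oas3*, *Oasl1* and *Tgtp1*. *Ifit2* had 53.6 and 53.2 CPM in RA and 77.2 and 89.0 in NRRA, against the Veh and NR values given above. It rose with RA by 0.56 ± 0.07 in complete medium (adjusted p = 8.5e-07) and by 1.00 ± 0.07 in restricted medium (adjusted p = 3.1e-12). *Oasl1*, a repressor of *Irf7* translation, had 21.4 and 15.8 CPM in Veh, 28.2 and 26.0 in NR, 34.4 and 28.7 in RA, and 38.4 and 43.0 in NRRA. Its log2 fold change with RA, 0.74 ± 0.11 in complete medium (adjusted p = 2.1e-06), was the largest rise of the list in that comparison, and in restricted medium it was 0.59 ± 0.09 (adjusted p = 6.7e-06). *Oas3* had 9.86 and 8.96 CPM in Veh, 17.9 and 17.7 in NR, 14.5 and 11.7 in RA, and 28.8 and 33.8 in NRRA, with no overlap between any 2 conditions. RA raised it by 0.45 ± 0.12 in complete medium (adjusted p = 0.0035, and 0.082 without the first RA library) and by 0.82 ± 0.09 in restricted medium (adjusted p = 2.7e-08). *Tgtp1* rose by 0.60 ± 0.23 in complete medium (adjusted p = 0.035, but 0.40 without the first RA library and 0.17 without the first Veh library) and by 1.56 ± 0.10 in restricted medium (adjusted p = 6.1e-13). *Ifi44*, which had 63.2 and 58.5 CPM in Veh, 154 and 131 in NR, 84.1 and 77.8 in RA, and 149 and 156 in NRRA, rose with RA in complete medium by 0.41 ± 0.07 (adjusted p = 1.9e-05), and in restricted medium its value was 0.10 ± 0.06 (adjusted p = 0.18). With an offset for GC content and length its value in complete medium was 0.11 (adjusted p = 0.18), and that of *Tgtp1* was 0.39 (adjusted p = 0.16), neither past the threshold.

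*Rsad2* and *Cmpk2*, which lie side by side on chromosome 12 on opposite strands, encode viperin, an enzyme that makes a chain-ending nucleotide, and the mitochondrial kinase that supplies its substrate. *Rsad2* (26442746 to 26456452, minus strand) had 32.4 and 29.3 CPM in Veh, 55.0 and 53.2 in NR, 40.2 and 38.5 in RA, and 90.9 and 106 in NRRA. *Cmpk2* (26469204 to 26479837, plus strand) had 29.1 and 22.5 CPM in Veh, 32.9 and 32.3 in NR, 32.7 and 32.0 in RA, and 56.2 and 67.0 in NRRA. Both genes were highest in NRRA with no overlap with any other condition. With restriction alone *Rsad2* rose by 0.81 ± 0.08 (adjusted p = 1.6e-09) and *Cmpk2* by 0.33 ± 0.09 (adjusted p = 0.0054, a call that did not pass without the second Veh library). Under RA the rises were 1.33 ± 0.07 (adjusted p = 4.0e-15) and 0.93 ± 0.08 (adjusted p = 3.7e-10).

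*Ifitm1* fell most with RA. It had 14.2 and 12.5 CPM in Veh, 20.4 and 19.4 in NR, 2.80 and 2.12 in RA, and 7.75 and 8.96 in NRRA. The 4 conditions did not overlap, with NR highest and RA lowest. Its log2 fold change with RA was −2.47 ± 0.15 in complete medium (adjusted p = 3.9e-13), which is 0.180 times the Veh level, and −1.25 ± 0.10 in restricted medium (adjusted p = 1.2e-10). Restriction raised it by 0.58 ± 0.10 without RA (adjusted p = 3.9e-05) and by 1.80 ± 0.15 with RA (adjusted p = 2.0e-10). *Ifitm1* is known from early germ cells, and the markers of undifferentiated spermatogonia, given above, fell with RA too. Their sum was also lower in NR (852 CPM) than in Veh (1028) and in NRRA (198) than in RA (393), where *Ifitm1* was higher. The part of these markers in the changes of *Ifitm1* was not tested.

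After *Ifitm1* and *Irf1*, *Gbp2* and *Ifitm2* had the largest falls with RA in complete medium. *Gbp2* had 42.8 and 44.6 CPM in Veh, 113 and 108 in NR, 30.4 and 26.0 in RA, and 90.3 and 97.9 in NRRA, and its log2 fold change with RA was −0.64 ± 0.07 in complete medium (adjusted p = 7.7e-08) and −0.23 ± 0.06 in restricted medium (adjusted p = 0.0018). *Ifitm2* had 45.7 and 40.7 CPM in RA and 72.2 and 74.9 in NRRA, and its log2 fold change was −0.46 ± 0.06 (adjusted p = 7.8e-07) and −0.45 ± 0.05 (adjusted p = 1.2e-07). *Parp9* had 71.0 and 63.8 CPM in Veh, 124 and 114 in NR, 54.3 and 50.2 in RA, and 93.5 and 99.1 in NRRA, with log2 fold changes of −0.37 ± 0.06 (adjusted p = 3.6e-05) and −0.30 ± 0.06 (adjusted p = 8.3e-05). The other genes that fell with RA in both media were *Ddx58*, *Dtx3l*, *Ifitm3*, *Irf1*, *Lgals3bp*, *Oas1a*, *Parp14*, *Samd9l*, *Stat2* and *Zbp1*, beside *Ifitm1*. In restricted medium the falls of *Stat2*, *Ddx58*, *Zbp1*, *Dtx3l*, *Gbp2* and *Lgals3bp* did not pass in every fit that left out a library, and in complete medium those of *Zbp1*, *Oas1a* and *Parp14* did not.

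**Figure D5:**
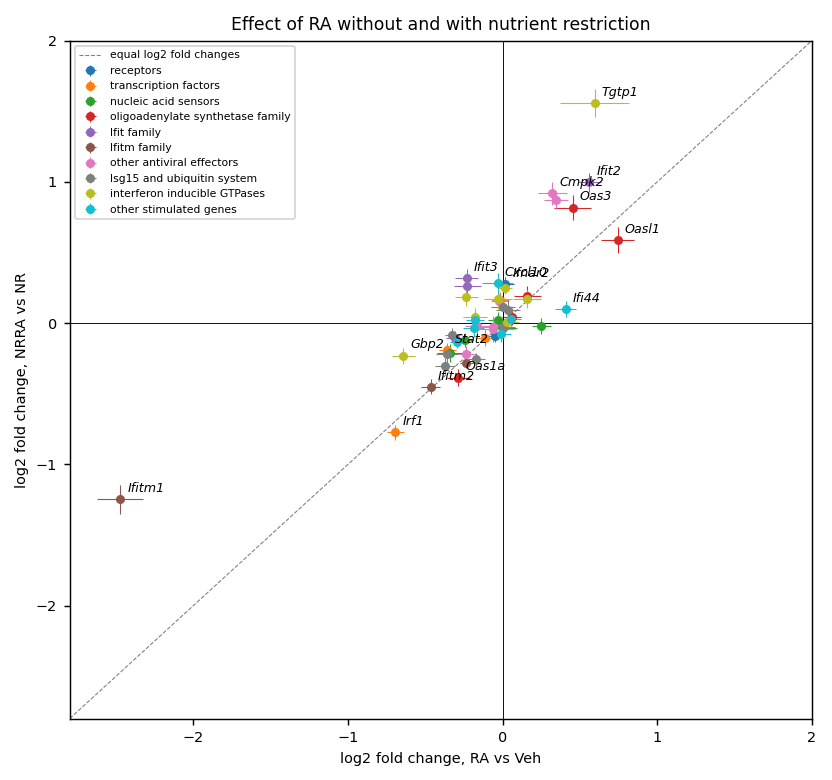
Log2 fold change of each gene with RA in complete medium (RA against Veh, horizontal) and in restricted medium (NRRA against NR, vertical), which share no library. Error bars are SE, colours are roles, and the dashed line marks equal values. *Ifitm1* lies far to the lower left at −2.47 and −1.25, *Irf1* and *Gbp2* follow on the negative side of both axes, and *Tgtp1*, *Ifit2*, *Cmpk2*, *Oas3* and *Oasl1* lie at upper right.

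Whether restriction and RA act independently on the log scale was tested by the interaction. In this test 12 genes were positive and 2 negative, against 6.37% and 6.58% of tested genes, with a median of 0.13 against 0.02 over all tested genes. A positive value means that restriction raised the gene more in the presence of RA than in its absence. At least 2-fold, *Ifitm1* was the 1 gene with a positive interaction (0.786% of tested genes), and 0 were negative (1.46%). The value of *Ifitm1* was 1.23 ± 0.19 (adjusted p = 3.9e-05). *Cmpk2* followed with 0.60 ± 0.13 (adjusted p = 0.0015), *Ifit3* with 0.55 ± 0.10 (adjusted p = 0.00029) and *Rsad2* with 0.52 ± 0.10 (adjusted p = 0.0007). These 4 genes passed in every fit that left out a library. *Tgtp1* had 0.97 ± 0.26 (adjusted p = 0.011), and its adjusted p was 0.080, 0.17 and 0.054 without the second Veh, the second RA or the second NR library. The 12 became 4 without the second NR library, 6 without the second RA library and 20 without the second Veh library. The negative values were those of *Ifi44*, −0.31 ± 0.09 (adjusted p = 0.021), and *Eif2ak2*, −0.27 ± 0.08 (adjusted p = 0.032). *Ifi44* did not pass without the first RA, the first NR or the first NRRA library (adjusted p from 0.11 to 0.13) or with the offset for GC content and length (−0.14, adjusted p = 0.26), and *Eif2ak2* did not pass without the first Veh library or without any library of RA or NRRA or the first of NR (adjusted p from 0.052 to 0.16). The 17 fibroblast markers had 7 positive and 3 negative interactions with a median of 0.11, and their part in these values was not tested.

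In NRRA against Veh, which combines both treatments and shares its libraries with comparisons above, 46 genes rose and 4 fell, against 30.1% and 28.7% of tested genes, 25 rose at least 2-fold (9.91%) and 0 fell at least 2-fold (6.02%). The genes that fell were *Irf1*, *Ifitm1*, *Ifi27* and *Ifnar1*, of which *Ifnar1* did not pass in every fit that left out a library. Both NRRA libraries lay above both Veh libraries for 47 genes (40.6% of tested genes) and below for 4 (36.8%).

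The interferon genes themselves were close to or at 0. Of 21 genes for interferons, 11 had 0 counts in all 8 libraries and none passed the filter, so none was tested. *Ifnb1*, the gene of IFN-β, had 5 and 2 reads in Veh, 3 and 6 in NR, 0 and 4 in RA, and 6 and 7 in NRRA, and the 21 genes together had 3 to 10 reads per library. For the genes at 0, counting error allows up to 3 reads per library. Small differences between the conditions could not be resolved at this depth for any of the 21 genes. Interferon protein was not measured.

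Other genes of the pathway, listed by their roles, are given next by group. Of 72 further stimulated genes that were tested, of 74 listed, 58 rose in NR against Veh (21.7% of tested genes) and 1 fell (22.2%). At least 2-fold, 31 rose (5.33%), and the median of the 72 was 0.86, against 0.01 over all tested genes. In NRRA against RA 59 rose (20.9%) and 0 fell (19.4%). There 33 rose at least 2-fold (4.61%), and the median was 0.92 against 0.02. *Cxcl9*, a chemokine induced by interferon gamma, had 3.12 and 2.50 CPM in Veh, 32.0 and 35.5 in NR, 1.84 and 1.91 in RA, and 21.5 and 24.01 in NRRA, a log2 fold change of 3.58 ± 0.12 in NR against Veh and 3.598 ± 0.13 in NRRA against RA. *Gbp5* rose by 2.58 ± 0.12 and 2.85 ± 0.12, *Ifi205* by 2.58 ± 0.13 and 2.80 ± 0.12, and *Cxcl11*, at 0.20 to 5.47 CPM, by 2.58 ± 0.37 and 3.22 ± 0.25.

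Of the 11 Janus kinase, other Stat and other Irf genes, 6 rose and 3 fell in NR against Veh (21.7% and 22.2% of tested genes). In NRRA against RA 4 rose and 2 fell (20.9% and 19.4%). In the interaction 4 of the 11 were negative and 0 positive (6.58% and 6.37% of tested genes). *Jak2*, which encodes a kinase of the interferon gamma receptor, rose less under RA. It had 49.3 and 54.9 CPM in Veh, 116 and 108 in NR, 51.8 and 53.3 in RA, and 68.5 and 69.1 in NRRA, so that it rose by 1.10 ± 0.06 without RA and by 0.39 ± 0.06 with RA, with an interaction of −0.72 ± 0.08 (adjusted p = 5.3e-07). *Irf8* had an interaction of −0.86 ± 0.15 (adjusted p = 0.00024).

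Of the 4 other receptor subunits, *Ifngr1* rose in each of the 4 comparisons. It had 29.6 and 32.7 CPM in Veh, 49.2 and 50.6 in NR, 58.7 and 57.3 in RA, and 111 and 113 in NRRA. Restriction raised it by 0.68 ± 0.06 without RA and by 0.95 ± 0.05 with RA, and RA raised it by 0.90 ± 0.06 in complete medium and 1.17 ± 0.05 in restricted medium. *Ifngr2*, the partner subunit, fell in NR against Veh (−0.31 ± 0.05) and in NRRA against RA (−0.39 ± 0.05). Of the 12 genes for inhibitors of the pathway, 3 rose and 5 fell in NR against Veh, where 21.7% and 22.2% of tested genes did, and 4 rose and 3 fell in NRRA against RA (20.9% and 19.4%). *Socs1* rose by 0.44 ± 0.10 in NR against Veh, while *Socs3*, which had 261 and 245 CPM in Veh, 186 and 198 in NR, 153 and 151 in RA, and 84.7 and 81.0 in NRRA, fell with restriction (−0.39 ± 0.05 without RA and −0.87 ± 0.05 with RA). Of the 20 upstream sensors and kinases tested, of 21 listed, 8 rose and 3 fell in NR against Veh. Of all tested genes 21.7% rose and 22.2% fell, and the median of the 20 was 0.14. *Tlr3*, a sensor of double-stranded RNA in endosomes, rose by 1.16 ± 0.09 and *Ifi204*, a DNA sensor gene, by 0.87 ± 0.07.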

How the data were processed

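RNA-seq was made in 8 libraries, 2 in each of Veh, RA, NR and NRRA. Per the labels, reads were mapped with STAR 2.6.1c to mm10 and the authors deposited featureCounts 1.6.4 counts, whole numbers of reads per gene without normalization, of which 55240 of 55421 identifiers are in GENCODE M21. The use of strand in counting is not given in the sources used here. The paper and the labels name different library kits. Column names gave the library of each count.

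Counts were filtered with filterByExpr, scaled by TMM and fitted with edgeR 4.0.16 (R 4.3.3), with 1 coefficient per condition over all 8 libraries, leaving 4 residual degrees of freedom and a biological coefficient of variation of 3.35%. The call "rose" or "fell" is an adjusted p under 0.05, and a fold of at least 2 is named where used. The SE is the absolute log2 fold change divided by the square root of F. CPM are TMM scaled. Shared transcript windows of just over 100 bases and exon overlap were computed from GENCODE M21 transcripts. Promoters are RefSeq windows on GRCm38.p6. The script was tested on simulated data. Figures were drawn with Python 3.11.15 and matplotlib 3.10.9.

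Members and gene lists were chosen with earlier results of these data known. Every member may be named. Values in each library with full statistics are given for receptors, transcription factors, and the 5 largest positive and negative log2 values among members with an adjusted p under 0.05 and a mean of at least 1 CPM over the 8 libraries, in each of NR against Veh, RA against Veh, NRRA against RA and the interaction. Other pathway genes are named at most 4 per role with a gene past the 2-fold rule, by the size of their log2 value in NR against Veh. Some genes that this rule names are not reported here. Alternatives were DESeq2 1.42.0, other scalings and filters, a replicate block, a GC and length offset, a test against a fold of 1.2, only the 2 conditions compared, and each library left out. With a library left out, the lone library is assumed to vary like the other conditions.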

Additional observations from a re-analysis of the deposited data

Results flagged for a closer look

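For 14 of the 52 genes the effect of nutrient restriction differed between cultures without and with RA, by the interaction term of edgeR's model. Of these, 12 were positive and 2 negative, against 6.37% and 6.58% of tested genes. Positive values, log2 units of extra rise under RA, were measured for *Ifitm1* (1.23 ± 0.19 SE), *Tgtp1* (0.97 ± 0.26), *Cmpk2* (0.60 ± 0.13), *Ifit3* (0.55 ± 0.10), *Rsad2* (0.52 ± 0.10), *Ifit3b* (0.49 ± 0.11), *Ifit2* (0.44 ± 0.10), *Irgm2* (0.42 ± 0.10), *Gbp2* (0.41 ± 0.09), *Ifnar2* (0.26 ± 0.08), *Trim25* (0.24 ± 0.07) and *Irgm1* (0.24 ± 0.06). Negative values were measured for *Eif2ak2* (−0.27 ± 0.08) and *Ifi44* (−0.31 ± 0.09). Leaving out each library in turn, *Ifitm1*, *Cmpk2*, *Ifit3* and *Rsad2* passed each time, and the other 10 each failed to pass at least once.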

How the results depend on the processing

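Of 404 counts of called members recomputed under the alternatives, 373 stayed within 1.5 times the reported count, and of 871 recomputed values of named genes, 801 kept direction and side of the threshold. The replicate numbers did not pair the libraries (correlations of deviations from −0.031 to 0.023 over the 6 pairs of conditions). With the replicate block 21 and 25 members rose at least 2-fold in NR against Veh and NRRA against RA, and 17 rose and 13 fell in NRRA against NR. The block with a GC and length offset was not run, since the numbers do not pair. The test against a fold of 1.2 left 3 members higher and 4 lower in RA against Veh, 6 and 4 in NRRA against NR, and 4 and 0 in the interaction. In NRRA against NR, DESeq2 called 8 higher, and upper quartile scaling and the fit of only the 2 conditions each put 2 at a 2-fold rise. The GC and length offset gave 2 members lower in NRRA against RA and, in the interaction, 2 at a 2-fold positive value and 1 negative. Leaving out each library, members that rose at least 2-fold ranged from 0 to 1 in RA against Veh, 15 to 22 in NR against Veh, 21 to 27 in NRRA against RA, 1 to 3 in NRRA against NR and 1 to 2 in the interaction. At the adjusted p alone, 1 to 2 fell in NRRA against RA, 9 to 17 rose and 9 to 18 fell in NRRA against NR, and 4 to 20 were positive and 0 to 2 negative in the interaction. Values near 0 changed sign, and the cause was not tested. The value of *Irf9* in RA against Veh (−0.01) became 0.022 with upper quartile scaling, 0.020 with the filter of 1 CPM, 0.032 with the offset, 0.019 with only the 2 conditions, and ranged from −0.037 to 0.015 without a library. *Irf7* in the interaction (0.01) became −0.013 with DESeq2, −0.0084 with RLE scaling, −0.0091 with upper quartile scaling, −0.039 with the filter and −0.037 with the offset, and −0.17 to 0.108 without a library. In RA against Veh, *Irf7* ranged from −0.23 to 0.052 and *Ifnar2* from −0.0011 to 0.0472 without a library. With 2 libraries per condition small differences cannot be resolved, and the interferon genes, at 0 to 7 reads, were too low to be tested.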
